A study of Mus musculus with 5 samples.

Results

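Matrix metalloproteinases and the tissue inhibitors that block them were examined in mouse soleus, a slow postural muscle of the calf. The members were the probes annotated as Mmp2, Mmp8, Mmp9, Mmp12, Mmp14, Timp1, Timp2 or Timp3, which gave 8 genes with 1 probe each, out of 203 genes named on an array of 223 probes. The 5 arrays each received 3 microgram of total RNA from frozen sections of soleus of C57Bl/6 mice. All were titled HUR wt R7 with a number, and the titles do not spell out HUR. All 5 samples belonged to 1 group, reloaded for 7 days per the series title. They are called mice 1, 3, 4, 5 and 6 after the numbers in their titles. The titles do not say whether each number is a separate animal. The sources used here do not state age, sex or loading before day 7. Unloaded and untreated muscle are not analysed here, so the comparisons are between the members and between the 5 mice, and nothing below is an effect of reloading.

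Matrix metalloproteinases are zinc-dependent proteases that are made as inactive proenzymes and cleave collagens, laminins and other proteins of the matrix around cells. Mmp14 is anchored in the cell membrane and activates proMmp2 at the cell surface, with Timp2 serving as the bridge between them. Timps bind the active site and inhibit the enzymes. In skeletal muscle, Mmp2 and Mmp14 are made by resident connective tissue, vessel and muscle cells, whereas Mmp8 and Mmp9 are typical of neutrophils and Mmp12 of macrophages that enter injured tissue.

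The DNA just before the start of a gene helps to set where it is read. The 100 bases before each annotated start are shown for the members found in the promoter table (RefSeq, GRCm38.p6), to set the measured members beside the leukocyte-type ones. Of the 8 members, 6 had an entry, in 7 windows, with 2 alternative starts for Mmp12. Mmp2 and Mmp9 had none. Capitals mark 2 motifs searched on both strands: the GC box GGGCGG, the binding sequence of Sp1-type factors, and the AP-1 element TGACTCA. The motifs did not overlap each other.
Mmp14, chr14:54431498-54431597, + strand: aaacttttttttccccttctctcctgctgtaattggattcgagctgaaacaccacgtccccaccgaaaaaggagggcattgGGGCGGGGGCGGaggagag
Timp1, chrX:20870066-20870165, + strand: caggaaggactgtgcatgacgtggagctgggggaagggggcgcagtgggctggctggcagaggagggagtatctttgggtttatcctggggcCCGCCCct
Timp2, chr11:118355412-118355511, - strand: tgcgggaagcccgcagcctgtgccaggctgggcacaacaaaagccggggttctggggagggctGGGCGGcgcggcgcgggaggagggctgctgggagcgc
Timp3, chr10:86300312-86300411, + strand: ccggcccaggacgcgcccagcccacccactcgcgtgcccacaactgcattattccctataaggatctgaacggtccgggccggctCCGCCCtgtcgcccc
Mmp8, chr9:7558329-7558428, + strand: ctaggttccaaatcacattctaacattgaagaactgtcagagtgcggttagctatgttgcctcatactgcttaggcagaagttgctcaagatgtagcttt
Mmp12 (first start), chr9:7344297-7344396, + strand: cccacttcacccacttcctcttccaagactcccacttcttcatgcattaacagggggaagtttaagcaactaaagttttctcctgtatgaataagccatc
Mmp12 (second start), chr9:7347274-7347373, + strand: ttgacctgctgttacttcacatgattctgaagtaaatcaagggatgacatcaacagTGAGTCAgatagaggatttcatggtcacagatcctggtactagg

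A GC box was present before the start of Mmp14, which held 2 side by side, and of Timp1, Timp2 and Timp3, which held 1 each. None lay in the windows of Mmp8 and Mmp12. Of all 32851 promoter windows of this length, 24.7% held a GC box. The AP-1 element was found before the second start of Mmp12 alone among these windows, where it reads TGAGTCA, its sequence on the other strand, against 1.88% of all windows. The share of G and C was 54.0% for Mmp14 and 65.0%, 75.0% and 69.0% for Timp1, Timp2 and Timp3, against 42.0% for Mmp8 and 44.0% and 42.0% for Mmp12. The median over all windows was 55.0%, so Mmp14 lay near it. These matches describe the letters in the windows, and binding was not measured.

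The deposited intensities are in arbitrary units, with column totals from 70.8 to 137 over the arrays and from 20 to 59 of 223 values at or below 0. The most negative value of an array, from -0.0168 in mouse 1 to -0.0041 in mouse 4, gives the scale of its background, and its size is used below as a stricter detection threshold. The array of mouse 1 stood apart, with a mean Spearman correlation with the others of 0.878 across the 147 probes above 0 on all arrays, against 0.941 to 0.947 for the others, so results are also given without it. All 6 muscle fibre markers on the array (Myh7, Myh2, Myh1, Myh4, Mb and Des) were above 0 in every mouse. With bulk RNA, fewer cells of a type and less RNA per cell cannot be told apart.

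The resident proteases and all 3 inhibitors gave a signal in every mouse, and the leukocyte-type proteases did not. Mmp2 and Mmp14 were above 0 in 10 of 10 values and the Timps in 15 of 15, against 1 of 15 for Mmp8, Mmp9 and Mmp12 together. Over all probes, 81.9% of values were above 0. By probe, 5 of the 8 members were above 0 on all 5 arrays, against a background of 65.9% of all probes, and the same 5 exceeded the stricter threshold on every array, against 45.3% of all probes. The share of members above 0 is thus near the background, and the members above and at or below it fall into different classes. The members were chosen with earlier results of these data known. Low signal was not particular to the leukocyte-type class: Mmp3, Mmp10 and Mmp11, which are outside it, passed the stricter threshold on 0, 1 and 0 arrays. Of the 8 members, 2 were at or below 0 on all 5 arrays (7.62% of all probes). Detection was described and not tested.

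Mmp14, the membrane-bound activator of proMmp2, had deposited intensities of 0.152, 0.113, 0.0496, 0.0427 and 0.177 in mice 1, 3, 4, 5 and 6. These were 4.15 to 19.1 times the size of the lowest value of the same array. Mice 4 and 5 were low, and the other three were at least at 0.113.

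Mmp2, the gelatinase that degrades type IV collagen and denatured collagens, had deposited intensities of 0.0547, 0.0596, 0.0180, 0.0115 and 0.0386 in mice 1, 3, 4, 5 and 6. Mice 4 and 5 were again lowest. The margin over background was thin in mouse 5, where the value was 1.12 times the size of the lowest value of that array, and widest in mouse 3, at 10.1 times.

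Mmp8, the neutrophil collagenase, was at -0.0134, -0.0039, -0.0041, -0.0043 and -0.0029 in mice 1, 3, 4, 5 and 6. In mouse 4 it was the lowest of all probes and so itself set the stricter threshold there. Mmp9, the gelatinase of neutrophils and macrophages, was at -0.0038, -0.0032, -0.0029, -0.0073 and -0.0037. Mmp12, the macrophage elastase, was at -0.0151, -0.0021, -0.0026, -0.0009 and 0.0007, so its single value above 0 was in mouse 6, at 0.0642 of the size of that array's lowest value. None of the 15 values passed the stricter threshold. Such values place the signal of these probes within the background of the array, and whether any transcript was made is not known. With 1 probe per gene, these 5 arrays do not show that the probes can detect their transcripts.

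Genes of leukocytes were thinly represented on the array and lay on both sides of the background. Of 18 listed markers, 6 had a probe. Csf3r, the neutrophil growth factor receptor, and the cytokines Il1b and Il6 were at or below 0 in all 5 mice. Csf2ra, a receptor subunit of myeloid cells, was above 0 in all 5 and above the stricter threshold in 4. Csf2rb and the kinase Btk were above 0 in 4 mice, the exception being mouse 1, and above the stricter threshold in 4 and 3. In mouse 6 Csf2rb reached 6.68 times the size of that array's lowest value. The summed intensity of the 6 ran from -0.0070 in mouse 1 to 0.0859 in mouse 6. General leukocyte, neutrophil and macrophage markers such as Ptprc, S100a8 and Adgre1 are not among the named probes, so their part in the signal was not tested.

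**Figure D1:**
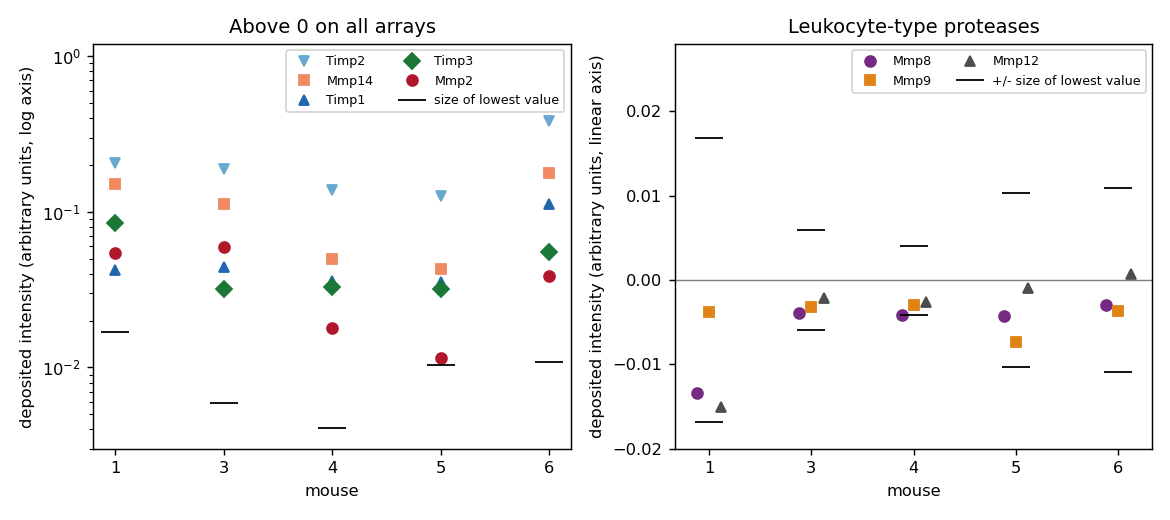
Deposited intensity of each member in each mouse, in arbitrary units. Left, on a log axis, the 5 members above 0 on all arrays, with black dashes at the size of the lowest value of each array; right, on a linear axis, Mmp8, Mmp9 and Mmp12, with dashes at plus and minus that size. All 25 values on the left lie above their dash, with Mmp2 in mouse 5 closest at 1.12 times, and none of the 15 on the right reaches the upper dash.

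The inhibitors Timp1 and Timp2 were highest in mouse 6, and Timp3 was highest in mouse 1. Timp2, which both inhibits Mmp2 and takes part in its activation, had deposited intensities of 0.206, 0.188, 0.137, 0.126 and 0.385 in mice 1, 3, 4, 5 and 6, at least 12.2 times the size of the lowest value on each array. Timp1, a secreted inhibitor that is induced in injured and inflamed tissue, had 0.0425, 0.0442, 0.0358, 0.0354 and 0.113, so that mouse 6 lay far above the other 4. Timp3, which is bound to the matrix and also inhibits ADAM proteases, had 0.0852, 0.0318, 0.0327, 0.0320 and 0.0551. As deposited, mice 3, 4 and 5 were nearly level, with mouse 6 above them and mouse 1 higher still.

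Because the arrays differed in overall signal, levels were also compared after quantile normalisation. Mmp2 was then at 0.0373 ± 0.0217 and Mmp14 at 0.102 ± 0.0449 (SD, n = 5), so that the SD of Mmp2 was 58.3% and that of Mmp14 43.9% of its mean (the coefficient of variation, CV). Timp1 was at 0.0502 ± 0.0141, Timp2 at 0.201 ± 0.0521 and Timp3 at 0.0452 ± 0.0180, with CVs of 28.0%, 26.0% and 39.8%. Timp3 in mouse 6 was then at 0.0370, level with mouse 4, below mouse 5 at 0.0431 and above mouse 3 at 0.0324. Its lead over mice 4 and 5 as deposited did not hold. With normalisation repeated without mouse 1, the CVs were 74.8% for Mmp2, 49.0% for Mmp14, 24.5% for Timp1, 28.3% for Timp2 and 9.94% for Timp3. The spread of Timp3 thus rests on mouse 1. Without mouse 6 the CV of Timp1 was 9.35%. Levels of different probes are on different scales, so no order between genes is given.

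None of the 5 measured members was called more or less variable between mice than probes of like signal. The SD of Mmp2 was 0.92 above the trend on the log2 scale (limma, adjusted p = 0.89) and that of Mmp14 was 0.65 above it (limma, adjusted p = 0.89). Timp3 was 0.22 above (limma, adjusted p = 0.90), Timp1 was at -0.24 (limma, adjusted p = 0.96) and Timp2 at -0.017 (limma, adjusted p = 0.96). Over all 146 probes tested, 0% were called wider and 0% narrower, with 7 and 8 at an unadjusted p below 0.05, so the test set no probe apart and does not show that the members varied alike. Without mouse 1, Mmp2 lay 1.36 above the trend (limma, adjusted p = 0.81).

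Both resident proteases were above their own 5-mouse mean in mice 1 and 3 and below it in mice 4 and 5, under each of 4 scalings. On the quantile-normalised log2 scale their mean deviation was 0.64, 0.85, -0.59, -0.79 and -0.11 in mice 1, 3, 4, 5 and 6. With totals as the scale, the deviation of mouse 1 was 0.29. Mouse 6 had no settled direction, at 0.65 as deposited and 0.23 scaled to the total. The mean deviation of the 3 Timps was 0.13, -0.03, -0.23, -0.14 and 0.28 in mice 1, 3, 4, 5 and 6. In mouse 1 this mean joins opposite members, with Timp1 at -0.31, Timp2 at -0.13 and Timp3 at 0.84. It was above 0 in mouse 6 under all 4 scalings, and in mouse 1 it was -0.21 when scaled to the total. As deposited, the median probe itself lay 0.59 above its mean in mouse 6 and 0.33 above it in mouse 1.

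**Figure D2:**
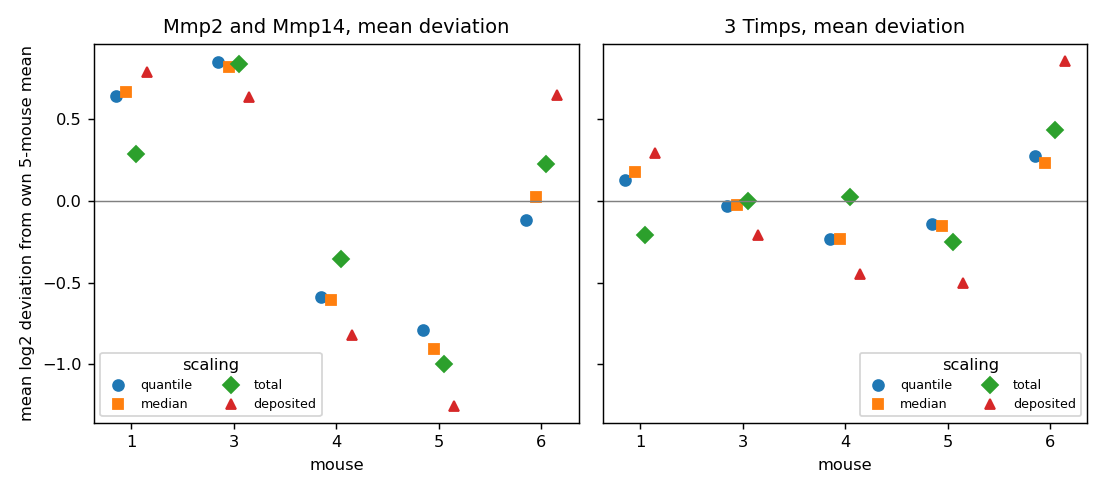
Mean log2 deviation of Mmp2 and Mmp14 (left) and of the 3 Timps (right) from their own mean over the 5 mice, under 4 scalings of the arrays. The 2 proteases lie above 0 in mice 1 and 3 and below 0 in mice 4 and 5 under every scaling shown, whereas the Timps stay above 0 under all 4 in mouse 6 alone.

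A ratio of 2 probes on the same array does not change when that array is scaled, so the balance of inhibitor to protease was followed as 6 ratios of deposited intensities. Their absolute size depends on the probes and carries no stoichiometry, and their variation between mice is the measurement. Timp2 over Mmp2 was 3.76, 3.15, 7.63, 11.0 and 9.97 in mice 1, 3, 4, 5 and 6. It therefore ranged 3.49-fold, with mice 1 and 3 low. Its mean log2 value was 2.65 ± 0.82 (SD, n = 5), or 2.84 ± 0.82 without mouse 1.

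Timp2 over Mmp14 was 1.36, 1.66, 2.77, 2.96 and 2.17 in mice 1, 3, 4, 5 and 6, a 2.18-fold range with a log2 mean of 1.06 ± 0.48, or 1.22 ± 0.38 without mouse 1. It was the steadiest of the 6 ratios. Timp1 over Mmp2 was the widest by SD, at 0.777, 0.742, 1.99, 3.08 and 2.93, with a log2 mean of 0.67 ± 1.01, or 0.93 ± 0.95 without mouse 1. Timp1 over Mmp14 was 0.280, 0.392, 0.722, 0.829 and 0.638, with a log2 mean of -0.92 ± 0.66, or -0.69 ± 0.47 without mouse 1. In each of these 4 ratios, with Timp1 or Timp2 on top, the 2 lowest values were those of mice 1 and 3 and the highest was that of mouse 5. The 2 lowest values were in the same mice after quantile normalisation and with a background offset added, but the highest value did not stay in mouse 5. Timp1 over Mmp2 and Timp2 over Mmp2 were highest in mouse 6 in both settings, and Timp2 over Mmp14 was highest in mouse 4 with the offset. Over all 6 ratios, mouse 5 was highest in 6 with deposited values, in 4 after quantile normalisation and in 3 with the offset, and its Mmp2 value is 1.12 times the size of that array's lowest value. The ratios share members and are not independent of one another.

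Ratios with Timp3 followed another order. Timp3 over Mmp2 was 1.56, 0.534, 1.82, 2.78 and 1.43 in mice 1, 3, 4, 5 and 6, with a log2 mean of 0.52 ± 0.88, or 0.49 ± 1.01 without mouse 1. Timp3 over Mmp14 was 0.562, 0.282, 0.659, 0.749 and 0.311, with a log2 mean of -1.07 ± 0.64, or -1.13 ± 0.73 without mouse 1. Mouse 5 was again highest and mouse 3 lowest in both, while mouse 1 was no longer among the lowest 2. Its high Timp3 value stands in both ratios.

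**Figure D3:**
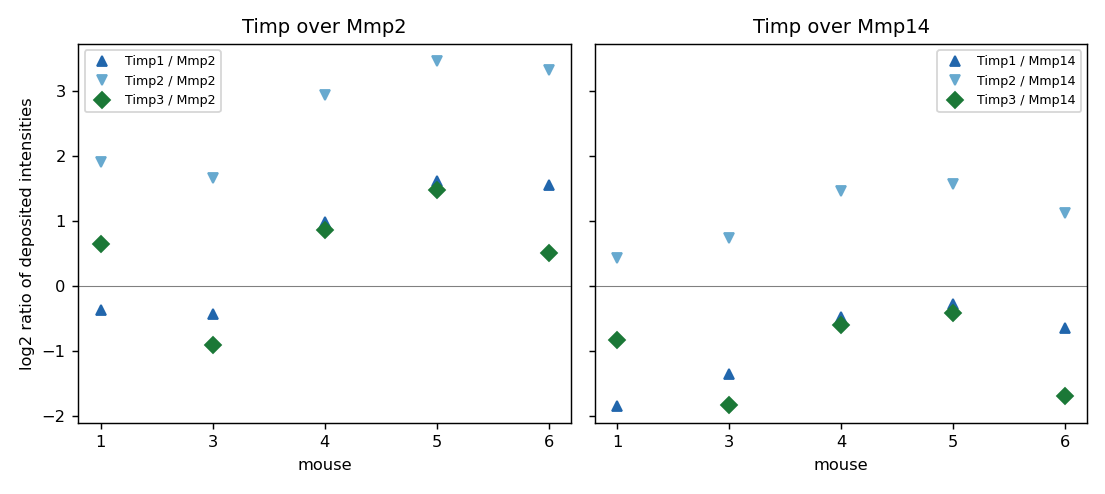
Log2 ratio of deposited Timp to Mmp2 (left) or Mmp14 (right) intensity on each array, 1 point per mouse. With Timp1 and Timp2 the values of mice 1 and 3 are the 2 lowest in both panels, and with Timp3 mouse 3 is lowest; mouse 5 is highest in all 6 ratios of these deposited values, against 4 of 6 after quantile normalisation.

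Among the members, Timp1 and Timp2 kept the most constant ratio. Timp1 over Timp2 was 0.207, 0.236, 0.261, 0.281 and 0.294 in mice 1, 3, 4, 5 and 6, a 1.42-fold range, although Timp1 and Timp2 themselves ranged 3.20-fold and 3.05-fold as deposited. The SD of this log2 ratio was 0.20, or 0.14 without mouse 1 and 0.29 after quantile normalisation. It was the smallest of the 10 pairs of measured members, so its place among all pairs is that of a selected pair. Over all 10585 pairs of the 146 probes the median SD was 0.76 with quartiles of 0.50 and 1.14, and 2.28% of pairs had a smaller SD than Timp1 and Timp2. Some of these probes lay within the background on some arrays. Among the 3480 pairs of probes of similar mean signal, the median SD was 0.69 and the 5th percentile 0.23. Mmp14 over Mmp2 had an SD of 0.48, Timp2 over Timp3 one of 0.59 and Timp1 over Timp3 one of 0.75. The 6 ratios of Timp to Mmp had SDs from 0.48 to 1.01, between percentiles 22.7 and 67.9 of all pairs. Pairs share probes and arrays, and the percentiles describe these 5 arrays only.

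**Figure D4:**
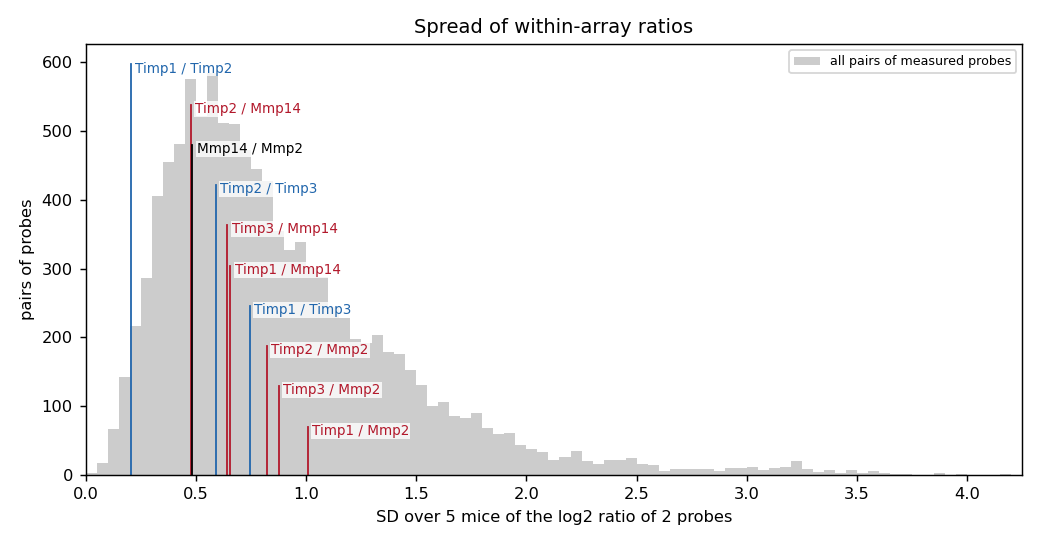
Histogram of the SD over 5 mice of the log2 ratio of deposited intensities for all 10585 pairs of the 146 probes, with a line for each of the 10 pairs of measured members (blue for 2 Timps, black for 2 proteases, red for Timp over Mmp; line heights serve only to separate the names). Timp1 over Timp2, at 0.20, lies near the left edge, and the others lie from 0.48 to 1.01.

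The gene whose pattern over the 5 mice was most like that of Mmp2 was Pdgfra, the platelet-derived growth factor receptor that marks fibroblasts and other mesenchymal cells. Likeness was the root mean square (RMS) difference of centred, quantile-normalised log2 values over 5 mice, among 138 genes. It was 0.090 for Mmp2 and Pdgfra. The median over 9453 pairs of genes was 0.65, but a nearest gene is picked for its small value. The nearest genes of the other members were at 0.12 to 0.20, so the median is no test of this pair. As deposited, Pdgfra was at 0.0474, 0.0485, 0.0172, 0.0086 and 0.0336 in mice 1, 3, 4, 5 and 6, and Mmp2 over Pdgfra stayed between 1.05 and 1.34. In mouse 5 the value of Pdgfra was below the size of that array's lowest value. Pdgfra was also the nearest gene with deposited values, at an RMS difference of 0.12, and without mouse 1, at 0.10. Next to Mmp2 came Mmp14 at 0.32 and the growth factor receptor Fgfr2 at 0.42, which with deposited values were at places 2 and 11.

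For Timp1 the nearest gene was Lama4, a laminin chain of vessel basement membranes, at an RMS difference of 0.14, and it was also the nearest with deposited values and without mouse 1. The growth factor Igf1 and the binding protein Igfbp6 followed at 0.22 and 0.23, and with deposited values were at places 15 and 7. For Timp2 the nearest were the matrix protein Thbs1 at 0.12, the ribosomal protein Rps29 at 0.19 and the matrix protein Tnc at 0.19. With deposited values the nearest to Timp2 was Lama4, at 0.13, and Thbs1 was at place 7, with 0.23. Without mouse 1, Thbs1 was at place 3.

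For Mmp14 the nearest genes were the matrix protein Thbs3 at 0.20, the binding protein Igfbp3 at 0.23 and Mmp2 at 0.32. With deposited values Thbs3 was at place 102, with an RMS difference of 0.87, Igfbp3 at place 81, with 0.75, and Mmp2 at place 16, with 0.43. Without mouse 1 the 3 were at places 2, 4 and 10. Thbs3 had a deposited value of 0.0010 in mouse 5, within the background, and Fn1 (fibronectin) was then nearest at 0.23. For Timp3 the nearest were the ribosomal protein Rpsa at 0.13, the cell cycle inhibitor Cdkn2d at 0.14 and the growth factor Vegfb at 0.14. Without mouse 1 these were at places 6, 17 and 19, so the likeness rests in part on their shared high value in that mouse. With deposited values Gapdh was nearest to Timp3, at 0.11. All likenesses describe 5 arrays and carry no test.

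**Figure D5:**
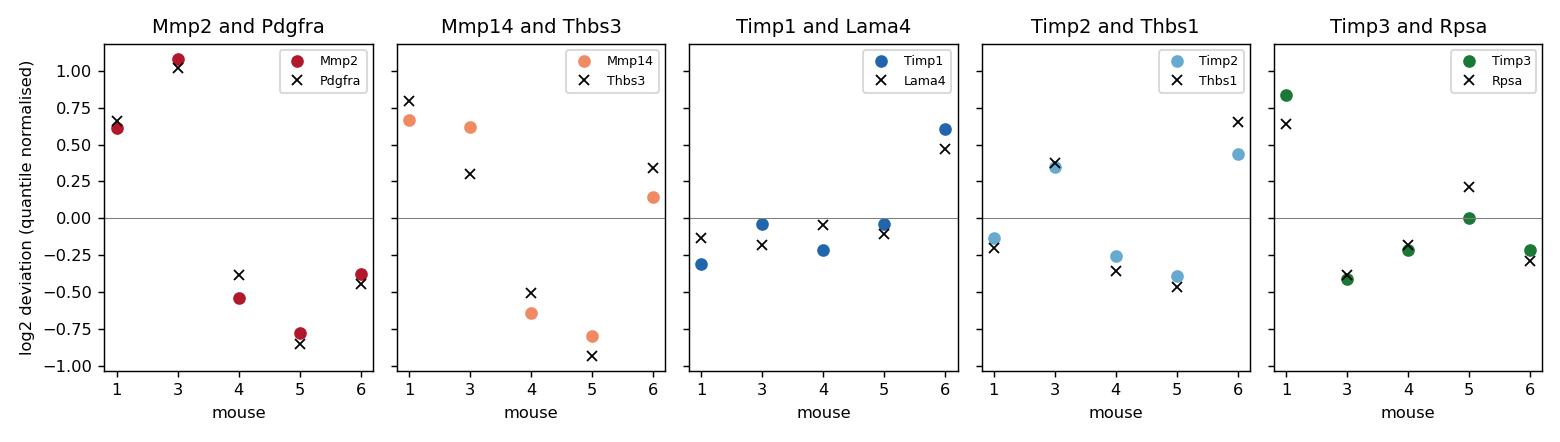
Quantile-normalised log2 deviation from the 5-mouse mean for each measured member (coloured circles) and the gene with the most similar pattern (black crosses), by mouse. Mmp2 and Pdgfra lie closest, with an RMS difference of 0.090, while Mmp14 and Thbs3 differ by 0.20.

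Other genes of matrix proteolysis were mostly near the background of their arrays. Of 8 with a probe, 4 were above 0 in all 5 mice (the background over all probes is 65.9%), and Ctsh alone exceeded the stricter threshold on all arrays. Ctsh, a lysosomal cathepsin, was at 0.0843, 0.0260, 0.0188, 0.0213 and 0.0429 in mice 1, 3, 4, 5 and 6. The urokinase Plau ran from 0.0037 to 0.0176, plasminogen (Plg) from 0.0065 to 0.0357, and the stromelysin Mmp10 from 0.0016 to 0.0132, all highest in mouse 6. The urokinase receptor Plaur, the tissue activator Plat and Mmp11 were above 0 in 4 mice, all but mouse 5. The stromelysin Mmp3 was above 0 in mice 1 and 4, and did not pass the stricter threshold in either.

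Genes of the matrix and of connective tissue and vessel cells were mostly above 0. Of 15 matrix and adhesion genes with a probe, 13 were above 0 in all 5 mice, beside 65.9% of all probes. Fn1, Tnc, Thbs1, Lama4, Lama5, Lamb2, Lamc1 and Itgb1 passed the stricter threshold on all 5 arrays, beside 45.3% of all probes. The rest of the 15 passed it on 3 or 4 arrays. Lamb2, a laminin chain, had the smallest fold between its highest and lowest deposited value, 1.84. The largest was that of Thbs2, whose lowest value, 0.0001 in mouse 5, lay within the background. The 6 markers of fibroblasts and vessel wall were all above 0 in every mouse, with summed intensities from 0.319 in mouse 3 to 0.688 in mouse 6. By the stricter threshold, Pdgfrb, Cd34, Pecam1 and Kdr passed on all 5 arrays, Pdgfra on 4 and Tek on 2. Pdgfrb, a receptor of pericytes and fibroblasts, had the smallest fold among them, 1.70, and Tek, the angiopoietin receptor of endothelium, the largest, 16.0, from 0.0009 in mouse 5 to 0.0144 in mouse 4. Among the 6, Pdgfra alone, like Mmp2, had its highest deposited value in mouse 3, at 0.0485 against 0.0474 in mouse 1. Pdgfra was named above for its likeness to Mmp2 on these same arrays, so the shared mouse adds nothing to that likeness. As deposited, Pdgfrb, Cd34, Pecam1 and Kdr were highest in mouse 6, and Tek in mouse 4. The median probe itself lay 0.59 above its mean in mouse 6 on the log2 scale as deposited. The part of overall array signal in the peaks and sums of mouse 6 was not tested. The part of cell composition in the members' spread was not tested.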

How the data were processed

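The authors deposited 1 linear intensity for each probe and array. How the arrays were scanned, corrected for background or scaled is not stated in the sources used here. Column medians from 0.0130 to 0.0338 and totals from 70.8 to 137 show no common scale. Probes were named through the platform annotation, and symbols updated by gene identifier to the GRCm38.p6 table. The 147 probes above 0 on all 5 arrays were kept, and their log2 values were quantile normalised between arrays. Spread between mice was tested with limma 3.58.1 (R 4.3.3, statmod 1.5.0): the variance of each probe's log2 values was compared with a trend in mean signal fitted robustly, with Benjamini-Hochberg adjustment over 146 probes at 0.05. The brightest probe, tied across arrays by construction, was left out. The script was tested on simulated data. Ratios within arrays used deposited values, since linear scaling cancels in them. All 8 members are named. For each measured member the rule also names the 3 genes with the smallest root mean square log2 difference, and for each gene list the measured genes whose highest and lowest deposited values differ by the largest and the smallest fold. Fn1 and Igf1 have 2 probes each, averaged for this. Alternatives were other scalings, a background offset, stricter detection thresholds, a filter on dim probes and leaving out each mouse. For the nearest genes, deposited values and leaving out mouse 1 were added after the data were seen. The members and lists were chosen with earlier results of these data known. The number of arrays, 5, limits the precision, and nothing in the labels says how the samples were drawn, so spread may be partly technical. Figures were drawn with matplotlib 3.10.9.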

Additional observations from a re-analysis of the deposited data

Results flagged for a closer look

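Of 23 sets of 5 values checked for a mouse far from the others (deposited values, quantile-normalised levels and log2 ratios of the members), 6 had a gap to the nearest value above Dixon's critical share of the range. Chance gives about 1 in 20 for independent sets, and these sets share values. Timp1 was high in mouse 6, with a gap of 0.887 of the range as deposited and 0.767 after quantile normalisation. Timp3 was high in mouse 1 after quantile normalisation, with a gap of 0.758, and the array of mouse 1 is the one furthest from the rest. The other 3 concern values at the background: Mmp8 and Mmp12 were low in mouse 1, with gaps of 0.867 and 0.791, and Mmp9 was low in mouse 5, with a gap of 0.795. The arrays of mice 1 and 5 held the most values at or below 0, 53 and 59.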

How the results depend on the processing

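The count of 5 members above 0 on all arrays, the means of the 6 ratios of Timp to Mmp (each moved by less than 1 SD) and the count of 0 members called for spread held under every alternative run for them. Part of this was fixed in advance. Leaving out 1 of 5 arrays cannot move a mean by 1 SD, and with these values it cannot change the count of 5. Requiring both probes above the stricter threshold kept all 5 arrays. The log2 means could move under quantile normalisation, where they shifted by -0.13 to -0.004. With the background offset they shifted by -0.35 to 0.12. With deposited values, 2 probes, neither a member, were called wider than the trend, against 0. The sign of a spread that was never called turned for Timp1 at 0.065 as deposited and 0.20 scaled to the total, for Timp2 at 0.046 as deposited and 0.018 without the dimmest 25% of probes, and for Timp3 at -0.067 as deposited and -0.73 scaled to the total. Leaving out each mouse gave -1.69 to 0.014 for Timp1, -0.25 to 0.39 for Timp2 and -1.20 to 0.31 for Timp3, and the sign turned in all 3 without mouse 1. The cause was not tested. A background offset lowered the SDs of the ratios to between 0.43 and 0.79. Of 30 values of likeness between a member and a near gene, 7 moved by over 1.5 times. No paired analysis was possible because there is 1 group. Depth is unknown, and Mmp2 in mouse 5 lies near the background.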
